A study of Mus musculus with 6 samples.

Results

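The genes described here encode the machinery that copies DNA in S phase, 41 in all, taken from the 19832 genes of the table by their symbols. The list was set by known function, but with earlier results of these data known. All 41 were found and passed the filter on low values. Expression was profiled by RNA sequencing, with an mRNA library kit applied to total RNA, in EO771 cells, a mouse mammary tumour line. There were 3 libraries of control cells (replicates 1 to 3) and 3 of cells given recombinant lipocalin-2 (LCN2), a small secreted carrier of siderophores, the molecules by which bacteria take up iron. Nothing else is said of the control, and the labels give neither a dose nor an exposure time. The labels do not call replicates separate cultures, and the p-values refer to variation among these 6 libraries, some of which may be technical.

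Replication starts at origins. Before S phase the origin recognition complex (ORC), CDC6 and CDT1 load the ring-shaped MCM helicase onto DNA, a step called licensing. MCM10, CDC45 and the GINS complex then turn the loaded rings into active helicases, primase and DNA polymerase alpha lay down short primers, and replication factor C (RFC) loads the sliding clamp PCNA that holds the main polymerases on their template. Transcription of most of these genes is driven by E2F factors late in G1, so in dividing tumour cells their mRNAs are commonly used as a readout of S phase activity.

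Values are FPKM (fragments per kilobase of transcript, relative to the size of the library), a unit inferred from the table, after scaling between libraries by TMM, the trimmed mean of ratios. Sequencing depth is unknown. Each library had 13299 to 13461 genes above 0. Epithelial markers were abundant, with summed levels of 1362 to 1388 FPKM in control and 1352 to 1393 FPKM in LCN2 libraries, although Cdh1 and Krt5, 2 of the 8 such markers, were too low to be tested. Of the 6 tested, Krt8 and Krt19 fell and Krt14 and Krt18 rose. The 6 mesenchymal markers in the table summed to 1106 to 1146 FPKM in control and 1194 to 1276 FPKM in LCN2 libraries, with Dcn and Fn1 higher, Vim lower and Pdgfrb at 0 throughout. All 5 mast cell and all 5 endothelial markers that were in the table were under 1 FPKM in every library. The 5 leukocyte markers in the table summed to 16.3 to 18.7 FPKM in control and 18.9 to 20.8 FPKM in LCN2 libraries. Of these Ptprc was at most 0.0894 FPKM, Cd68 was not called and Cd14 rose by 0.32 (adjusted p = 0.0331). Itgam and Lyz2 were too low to be tested and went the other way. Itgam averaged 1.16 FPKM in control and 0.742 FPKM in LCN2 libraries, and Lyz2 0.331 and 0.193 FPKM. The part of these markers in the results below was not tested. On the first principal component, LCN2 replicate 2 lay at 4.34, between the other LCN2 libraries (15.7 and 16.5) and the controls (-17.3 to -8.09).

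Replication mRNAs were modestly lower in LCN2-treated cells. Of the 41 genes, 14 fell and 2 rose, where 9.73% of all 10309 genes tested fell and 11.8% rose (limma, Benjamini-Hochberg adjusted p under 0.05). The falls lay in 6 of the 7 role groups, helicase activation having none, and had their smallest adjusted p in the primase gene Prim1 and the clamp loader gene Rfc3. Orc2 and Gins1 were the 2 genes that rose. Falls were not confined to S phase genes. All 20 genes of G2 and mitosis listed further below had log2 fold changes below 0, and 35% of them fell, beside 34.1% of the 41. In these bulk samples, a change in the share of cells in any phase and less RNA per cell cannot be told apart.

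Across the list 34 of 41 log2 fold changes were below 0, against 49.8% of all genes tested. The median was -0.16 on the log2(FPKM + 1) scale, LCN2 minus control, and 0.0008 over all genes. In 23 genes every LCN2 library lay below every control and in 4 every one lay above, where 21.6% and 23% of all genes did so. Changes were small, since the called falls ran from -0.22 (Tk1) to -0.55 (Fen1) and the called rises were 0.20 and 0.32. Under the other 4 scalings between libraries 15 to 21 genes were lower and 1 or 2 higher, all 14 reported falls included. Over all genes 10.2% to 16.3% were then lower and 6.72% to 11.5% higher. The median over all genes was -0.056 as deposited and -0.0033 to -0.026 under the rest, against 0.0008 as reported. Passes as lower under these scalings, given below for single genes, are to be read beside this shift. Leaving out a library could move these counts further. There were 4 falls when control 1 was dropped, 3 for control 3, 2 for LCN2 1, 3 for LCN2 3, 20 for LCN2 2 and 13 for control 2. In the same order 2.16%, 1.56%, 0.864%, 1.75%, 14.6% and 7.36% of all genes were lower, so the counts moved with the whole table. In the first 4 of these fits no rise was called among the 41, where 1.74% to 4.03% of all genes rose.

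**Figure D1:**
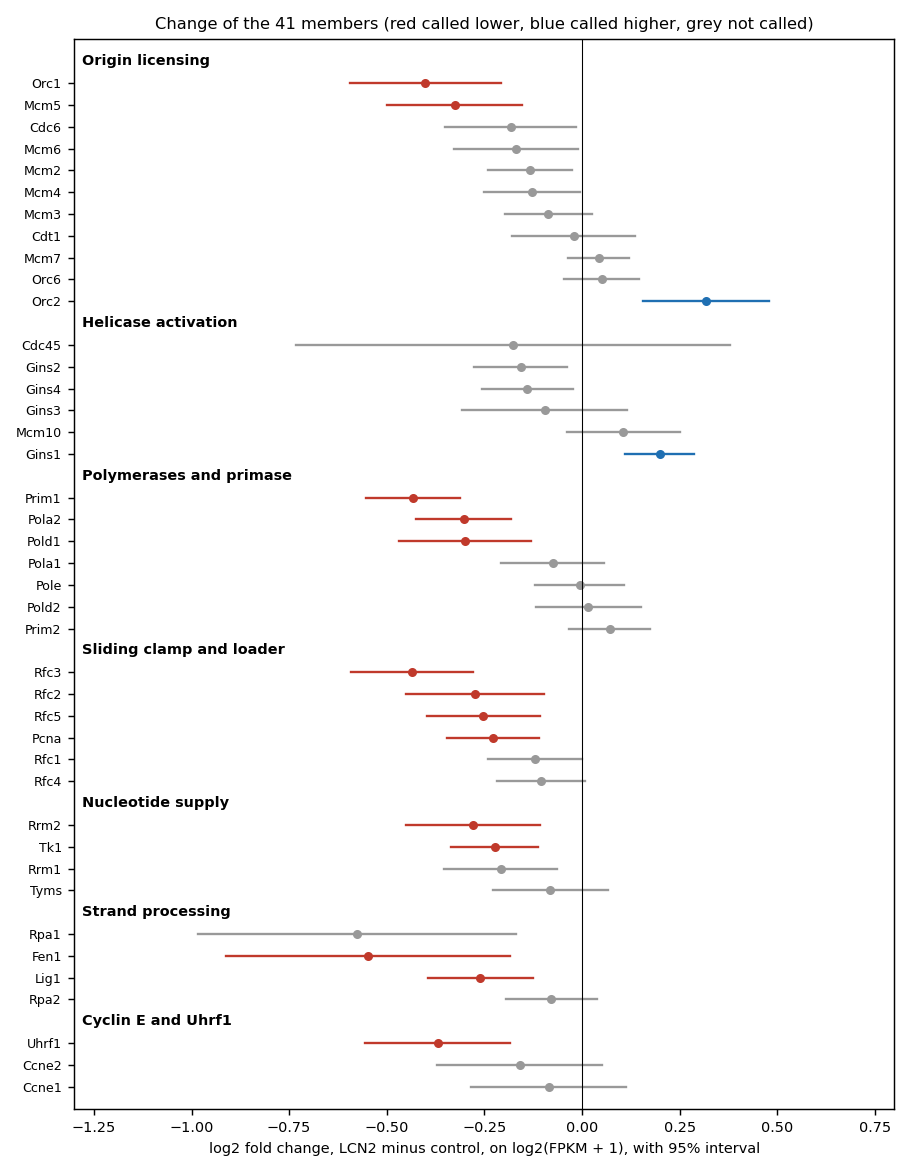
Log2 fold change of each of the 41 genes, LCN2 minus control on log2(FPKM + 1), with its 95% interval from limma, grouped by role. Red points passed as lower (14 genes), blue as higher (Orc2 and Gins1) and grey did not pass. Most grey points also lie left of 0.

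Promoters of these genes are known for E2F motifs, so their sequences were read from RefSeq's promoter table for GRCm38.p6, which holds 250 bases before and 50 after each start. It had an entry for 33 of the 41 genes. The letters TTTCCCGC, TTTCGCGC, TTTGCCGC or TTTGGCGC, on either strand, stood in at least 1 promoter of 13 of these 33 genes (39.4%). They stood in 5.09% of the 8284 tested genes with an entry and in 2.27% of all 32851 promoters. Below, 3 called falls with a match before the start (Orc1, Mcm5 and Uhrf1), 2 uncalled genes with one (Mcm6 and Pola1) and Prim1, a called fall with none, are shown 5′ to 3′ as RefSeq reads them along each gene, with the matched letters in capitals.
Orc1 (chr4:108579294-108579447, plus strand): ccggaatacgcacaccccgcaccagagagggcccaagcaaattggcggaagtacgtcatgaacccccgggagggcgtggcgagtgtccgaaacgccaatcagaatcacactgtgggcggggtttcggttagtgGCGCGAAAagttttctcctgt
Mcm5 (chr8:75109339-75109508, plus strand): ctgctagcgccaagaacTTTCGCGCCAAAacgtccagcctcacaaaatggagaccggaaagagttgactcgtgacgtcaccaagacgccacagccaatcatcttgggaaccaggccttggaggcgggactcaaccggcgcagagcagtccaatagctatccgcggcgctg
Uhrf1 (chr17:56304113-56304312, plus strand): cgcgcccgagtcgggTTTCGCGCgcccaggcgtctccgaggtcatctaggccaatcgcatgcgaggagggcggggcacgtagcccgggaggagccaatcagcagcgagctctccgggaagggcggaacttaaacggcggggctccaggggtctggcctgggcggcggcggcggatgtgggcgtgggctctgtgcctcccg
Mcm6 (chr1:128359706-128359865, minus strand): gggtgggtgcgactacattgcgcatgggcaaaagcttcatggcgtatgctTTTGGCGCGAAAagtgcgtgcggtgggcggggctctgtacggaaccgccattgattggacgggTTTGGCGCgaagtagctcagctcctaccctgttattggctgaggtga
Pola1 (chrX:93632156-93632315, minus strand): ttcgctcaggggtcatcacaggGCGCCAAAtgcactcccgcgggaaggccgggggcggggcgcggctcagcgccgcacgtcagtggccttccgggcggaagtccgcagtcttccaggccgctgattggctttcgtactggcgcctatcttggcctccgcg
Prim1 (chr10:128015055-128015192, plus strand): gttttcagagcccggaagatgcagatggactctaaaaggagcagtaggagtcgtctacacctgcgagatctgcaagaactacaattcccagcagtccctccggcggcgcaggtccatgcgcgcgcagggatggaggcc
Uhrf1 has a further start in the table, whose window holds no match and is not shown. Mcm5 carries 2 matches that overlap each other, and Mcm6 carries 3, of which 2 overlap. The stretches end at the base before the start, except that those of Orc1 and Prim1 stop 7 and 23 bases before it. The last 25 bases of both lie in an exon of GENCODE M21, which holds the Orc1 match.

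Called falls stood among the genes with a match and among those without; a difference between them was not tested. Of the 13 genes with one, 6 fell, 0 rose and 7 were not called, with a median log2 fold change of -0.18. Among the 20 without one, 7 fell, 1 rose and 12 were not called, with a median of -0.15. Over all tested genes with an entry, 13.5% of those with a match and 9.57% of those without were called lower. The CCAAT box (CCAAT) was in 22 of the 33 genes, against 43.6% of tested genes, the E-box CACGTG in 6 (12.3% of tested genes) and the CHR letters TTTGAA in 5 (14.3%). These motifs are given as letters in a window and were not tested as binding sites.

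**Figure D2:**
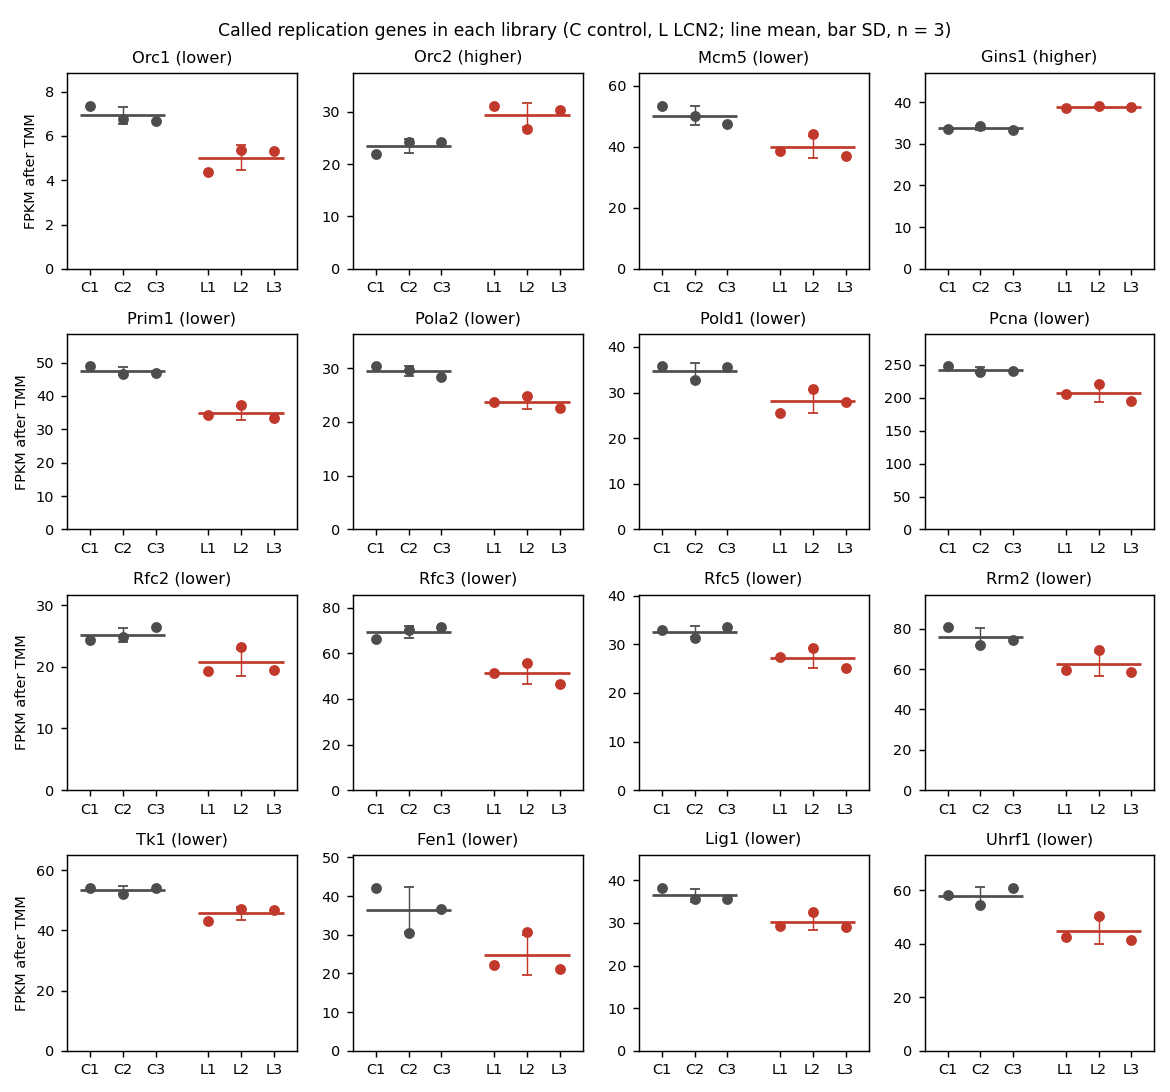
TMM-scaled FPKM of the 16 called genes in each library, with group means and SD (n = 3). Axes start at 0. LCN2 points lie below the controls in the panels marked lower, apart from Fen1, where LCN2 replicate 2 is level with control replicate 2, and above them for Orc2 and Gins1.

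Of 11 origin licensing genes, 2 fell (Orc1 and Mcm5) and 1 rose (Orc2), or 18.2% and 9.09%, beside 9.73% and 11.8% of all genes. The median log2 fold change was -0.13. Orc1, an ATP-binding subunit and the one that varies most over the cell cycle, had 7.36, 6.76 and 6.66 FPKM in control replicates 1 to 3. It had 4.37, 5.36 and 5.32 FPKM in LCN2 replicates 1 to 3. All LCN2 libraries were below all controls, and Orc1 fell by 27.6% (log2 fold change -0.40, SE 0.083, adjusted p = 0.0192 from limma). Orc2, a core subunit held at origins through the cycle, had 21.9, 24.2 and 24.1 FPKM in control and 31.1, 26.8 and 30.4 FPKM in LCN2 libraries. It rose by 25.8% without overlap (0.32 on the log2 scale, adjusted p = 0.0216). The third ORC gene, Orc6, stood at 65.7 ± 1.27 and 68.2 ± 2.37 FPKM (SD, n = 3) and was not called.

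Among the MCM helicase genes, Mcm5 alone was called. It stood at 53.4, 49.97 and 47.3 FPKM in control and at 38.7, 44.1 and 36.9 FPKM in LCN2 libraries, a fall of 0.33 on the log2 scale (adjusted p = 0.0238). None of the other 5 passed as reported. Mcm2 passed as lower as deposited (adjusted p = 0.0395), after quantile normalization (0.0436) and without LCN2 replicate 2 (0.0209), Mcm6 as deposited (0.0482) and without LCN2 replicate 2 (0.0172), and Mcm4 without LCN2 replicate 2 (0.0215). Mcm2 was at 76.4 ± 0.569 and 69.7 ± 3.70 FPKM (log2 fold change -0.13, adjusted p = 0.0769), and Mcm4 at 37.6 ± 0.467 and 34.3 ± 2.22 FPKM (-0.13, adjusted p = 0.119). In both genes the groups did not overlap. Mcm6 (-0.17) and Mcm3 (-0.09) overlapped, and Mcm7 lay slightly above in LCN2 cells, at 146 ± 2.04 against 141 ± 1.41 FPKM (0.04, adjusted p = 0.374), but slightly below as deposited (-0.021) and after quantile normalization (-0.0077).

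By level per length in control cells the ring's 6 genes ran from Mcm7 through Mcm3 (115 FPKM), Mcm6 (76.9), Mcm2 (76.4) and Mcm5 (50.2) to Mcm4 (37.6), and only Mcm6 and Mcm2 lay within 1 SD of each other. Neither loader was called. Cdc6, which ORC recruits to load MCM, was at 15.8 ± 0.911 and 13.9 ± 1.15 FPKM (-0.18, adjusted p = 0.105), with no overlap between groups, and passed as lower as deposited (0.0440). Cdt1, its partner, was at 46.2 ± 4.32 and 45.4 ± 0.793 FPKM (-0.02, 95% interval -0.18 to 0.14). Calls of Orc1 and Orc2 were lost when any of controls 1 and 3 and LCN2 libraries 1 and 3 was dropped (adjusted p up to 0.0643 and 0.0843), and that of Mcm5 without any library but LCN2 replicate 2 (up to 0.0893). Exons of Orc1 share bases with Gm12743 on the opposite strand, those of Orc2 with Nif3l1 and those of Mcm7 with Cops6 and Ap4m1, and the treatment of strand is not given in the sources used here.

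Of the 6 helicase activation genes, 1 rose and 5 were not called, against 11.8% of all genes called higher and 9.73% called lower, and 6 genes are too few to set the stage apart from these shares. Gins1, which encodes the PSF1 subunit of the GINS ring, had 33.5, 34.3 and 33.3 FPKM in control and 38.6, 39.1 and 38.7 FPKM in LCN2 libraries. Every LCN2 library was above every control, and Gins1 rose by 15.2% (log2 fold change 0.20, SE 0.038, adjusted p = 0.0158 from limma). Gins2 and Gins4, other subunits of the same ring, were lower without overlap but did not pass, at -0.16 (adjusted p = 0.0639) and -0.14 (adjusted p = 0.0798), and Gins3 was at -0.10 (adjusted p = 0.471). Gins2 passed as lower as deposited (adjusted p = 0.0225) and with equal column sums (0.0333), and Gins4 as deposited (0.0398) and without LCN2 replicate 2 (0.0464).

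Cdc45, the factor that joins MCM and GINS, varied among controls more than between groups. It had 3.21, 6.98 and 6.98 FPKM in control and 5.36, 4.63 and 4.17 FPKM in LCN2 libraries. Control replicate 1 was thus the lowest of all 6, and without it Cdc45 passed as lower (-0.49, adjusted p = 0.0419), while with it the value was -0.18 (adjusted p = 0.615). Mcm10, which helps to activate the loaded helicase, was at 14.4 ± 1.07 and 15.6 ± 0.532 FPKM and was not called. The call of Gins1 was lost when any of controls 1 and 3 and LCN2 libraries 1 and 3 was dropped (adjusted p up to 0.0675), and also in values as deposited.

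Of 7 polymerase and primase genes 3 fell (42.9%, beside 9.73% of all genes), a share that rests on few genes. The falls were those of the small primase subunit Prim1, the B subunit of polymerase alpha Pola2 and the catalytic subunit of polymerase delta Pold1. Prim1 (chromosome 10, 128015168 to 128030037, GRCm38), which synthesizes the RNA primer, had 48.8, 46.5 and 46.9 FPKM in control and 34.3, 37.2 and 33.3 FPKM in LCN2 libraries. The lowest control exceeded the highest LCN2 library by far more than the spread within either group, and Prim1 fell by 26.4% (log2 fold change -0.43, SE 0.052, adjusted p = 0.00555 from limma). Pola2, which tethers the polymerase to the fork, had 30.3, 29.6 and 28.4 FPKM in control and 23.6, 24.9 and 22.5 FPKM in LCN2 libraries, a fall of 0.30 (adjusted p = 0.0119). Pold1, the lagging strand polymerase, had 35.7, 32.7 and 35.6 FPKM in control and 25.5, 30.7 and 28.0 FPKM in LCN2 libraries and also fell by 0.30 (adjusted p = 0.0287).

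Partner subunits of these enzymes were not called. Prim2, the large primase subunit, averaged 23.5 ± 0.134 FPKM in control against 24.8 ± 0.908 FPKM in LCN2 cells, with every LCN2 library slightly above every control (0.07, adjusted p = 0.276). Pola1, the catalytic subunit of polymerase alpha, was at 8.68 ± 0.447 and 8.18 ± 0.153 FPKM (-0.08, 95% interval -0.21 to 0.06). Pold2 was at 26.4 ± 1.78 and 26.7 ± 0.712 FPKM (0.02, interval -0.12 to 0.15). Pole, the leading strand polymerase, had the smallest change of the list, at 7.84 ± 0.0780 and 7.81 ± 0.0173 FPKM (-0.01, interval -0.12 to 0.11). Prim1 stayed called in each of the 15 alternative fits, with an adjusted p of up to 0.0353 when a library was left out, while Pola2 was lost without LCN2 replicate 1 (adjusted p = 0.0568). Pold1 was lost when any of controls 1 and 3 and LCN2 libraries 1 and 3 was dropped (up to 0.0929).

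Every gene of the sliding clamp and its loader was lower by direction. All 6 were lower in every LCN2 library than in every control, where 21.6% of all genes were, 4 of the 6 fell, where 9.73% of all genes did, and the median log2 fold change was -0.24. Rfc3 (chromosome 5, 151642756 to 151651242), a small loader subunit, had 66.4, 70.4 and 71.5 FPKM in control and 51.4, 55.6 and 46.6 FPKM in LCN2 libraries. It fell by 26.3% (log2 fold change -0.44, SE 0.067, adjusted p = 0.00970 from limma). Its RefSeq window holds an E2F match that begins 10 bases before the start and another at the start itself.

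Pcna, the clamp and the most abundant mRNA of the list, had 247, 239 and 241 FPKM in control and 205, 221 and 194 FPKM in LCN2 libraries. It fell by 14.6%, or 0.23 on the log2 scale (adjusted p = 0.0224). Rfc2 had 24.3, 24.8 and 26.4 FPKM in control and 19.4, 23.3 and 19.5 FPKM in LCN2 libraries, a fall of 0.27 (adjusted p = 0.0412). Rfc5 had 33.0, 31.3 and 33.6 FPKM in control and 27.5, 29.2 and 25.1 FPKM in LCN2 libraries, a fall of 0.25 (adjusted p = 0.0296). In all of these LCN2 replicate 2 was the closest to the controls.

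The large loader subunit Rfc1 and the small subunit Rfc4 showed smaller differences that did not pass. Rfc1 was at 14.1 ± 0.244 and 12.9 ± 0.625 FPKM (-0.12, adjusted p = 0.131), and Rfc4 at 20.9 ± 0.861 and 19.3 ± 0.462 FPKM (-0.11, adjusted p = 0.153). Rfc3 was called in all 15 alternative fits, up to an adjusted p of 0.0498 when a library was left out. Pcna and Rfc5 were lost when any of controls 1 and 3 and LCN2 libraries 1 and 3 was dropped (up to 0.0852 and 0.0978), and Rfc2 without any library but LCN2 replicate 2 (up to 0.138). Exons of Rfc2, Rfc4 and Rfc5 share bases with Lat2, Eif4a2 and Wsb2 on the opposite strand.

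Genes that supply deoxynucleotides were lower in 4 of 4 cases by direction, beside 49.8% of all genes. Of these 4, 2 were called lower, beside 9.73% of all genes, and 4 genes are too few to set the group apart from these shares. Rrm2, the small subunit of ribonucleotide reductase that limits the enzyme in S phase, had 80.8, 72.2 and 74.5 FPKM in control and 59.6, 69.2 and 58.4 FPKM in LCN2 libraries. It fell by 17.7% without overlap (log2 fold change -0.28, SE 0.074, adjusted p = 0.0356 from limma). Tk1, the cytosolic thymidine kinase, had 54.1, 52.0 and 54.1 FPKM in control and 43.1, 47.2 and 46.7 FPKM in LCN2 libraries, a fall of 0.22 (adjusted p = 0.0207). Rrm1, the large reductase subunit, missed the threshold narrowly, with 87.2, 82.0 and 84.2 FPKM in control and 71.2, 80.0 and 68.2 FPKM in LCN2 libraries (-0.21, adjusted p = 0.0508).

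Tyms, the thymidylate synthase, was at 16.3 ± 1.37 and 15.3 ± 0.110 FPKM and overlapped (-0.08, adjusted p = 0.378). Rrm1 passed under each of the other 4 scalings (adjusted p from 0.0233 to 0.0475) and without LCN2 replicate 2 (0.00664). It did not pass with a term for replicate number (0.110), with no variance trend (0.0743) or with no filter on low values (0.0792). Nor did it pass when any other library was left out. Rrm2 and Tk1 were lost when any of controls 1 and 3 and LCN2 libraries 1 and 3 was dropped (up to 0.124 and 0.0768). Exons of Tk1 share bases with Afmid on the opposite strand.

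Among the genes that protect and join new strands, Fen1 and Lig1 fell and the RPA genes were not called. That is 2 of 4 genes, beside 9.73% of all genes called lower, and 4 genes are too few to set the group apart from this share. Lig1, the ligase that seals Okazaki fragments, had 38.3, 35.7 and 35.5 FPKM in control and 29.4, 32.6 and 29.0 FPKM in LCN2 libraries. It fell by 16.9% without overlap (log2 fold change -0.26, SE 0.058, adjusted p = 0.0226 from limma). Fen1, the flap nuclease that trims those fragments, had 42.1, 30.5 and 36.6 FPKM in control and 22.3, 30.7 and 21.2 FPKM in LCN2 libraries. Its fall of 0.55 (adjusted p = 0.0440) was the largest called of the list, yet control replicate 2 and LCN2 replicate 2 were level.

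Rpa1, the large subunit of the single-strand binding protein RPA, had the lowest log2 fold change of all 41 genes but was not called (-0.58, adjusted p = 0.0525). It had 72.7, 71.3 and 115 FPKM in control and 55.1, 62.4 and 51.2 FPKM in LCN2 libraries. Control replicate 3 stood far above the other controls, and without it the value was -0.36 (adjusted p = 0.0612). The groups did not overlap with or without that library, and Rpa1 passed as lower as deposited (adjusted p = 0.0238), with equal column sums (0.0417), after quantile normalization (0.0441) and without control 2 (0.0460). Rpa2, the middle subunit, was at 19.5 ± 0.708 and 18.5 ± 0.663 FPKM (-0.08, adjusted p = 0.282). Fen1 and Lig1 were lost when any of controls 1 and 3 and LCN2 libraries 1 and 3 was dropped (up to 0.143 and 0.0889), and exons of Fen1 share bases with Tmem258 and Gm10143 and those of Lig1 with Zswim9.

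Cyclin E, which with CDK2 starts S phase, showed no called change. Ccne1 averaged 16.6 ± 1.53 FPKM in control against 15.6 ± 1.42 FPKM in LCN2 cells (-0.09, 95% interval -0.28 to 0.11), and Ccne2 at 15.8 ± 1.13 and 14.1 ± 1.77 FPKM (-0.16, interval -0.37 to 0.05). Uhrf1, which recruits the maintenance DNA methyltransferase to newly copied DNA, had 58.3, 54.5 and 61.0 FPKM in control and 42.4, 50.3 and 41.5 FPKM in LCN2 libraries. It fell by 22.8% without overlap (log2 fold change -0.37, SE 0.079, adjusted p = 0.0207 from limma). Ccne2 passed as lower without LCN2 replicate 2 (-0.25, adjusted p = 0.0341), and Uhrf1 was lost when any of controls 1 and 3 and LCN2 libraries 1 and 3 was dropped (up to 0.0830).

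The 3 LCN2 libraries did not depart equally from the controls. Relative to each gene's control mean, the median over the 41 genes was -0.17 in LCN2 replicate 1, -0.08 in replicate 2 and -0.21 in replicate 3 on the log2 scale, and between -0.02 and 0.02 in the controls. LCN2 replicate 2 was the highest LCN2 library in 29 of the 34 genes with a log2 fold change below 0, and in all 14 that fell. It lay below the lowest control in 24 of the 41 genes, compared with 28 in LCN2 replicate 1 and 29 in LCN2 replicate 3. Shares over all genes were not taken for these counts. Over all genes tested LCN2 replicate 2 was also nearest the controls, at 4.34 on the first principal component against 15.7 and 16.5. It also correlated best of the LCN2 libraries with each control, so this order was not particular to the replication genes. The summed level of the 41 genes was 1850, 1810 and 1893 FPKM in control and 1607, 1722 and 1575 FPKM in LCN2 libraries.

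**Figure D3:**
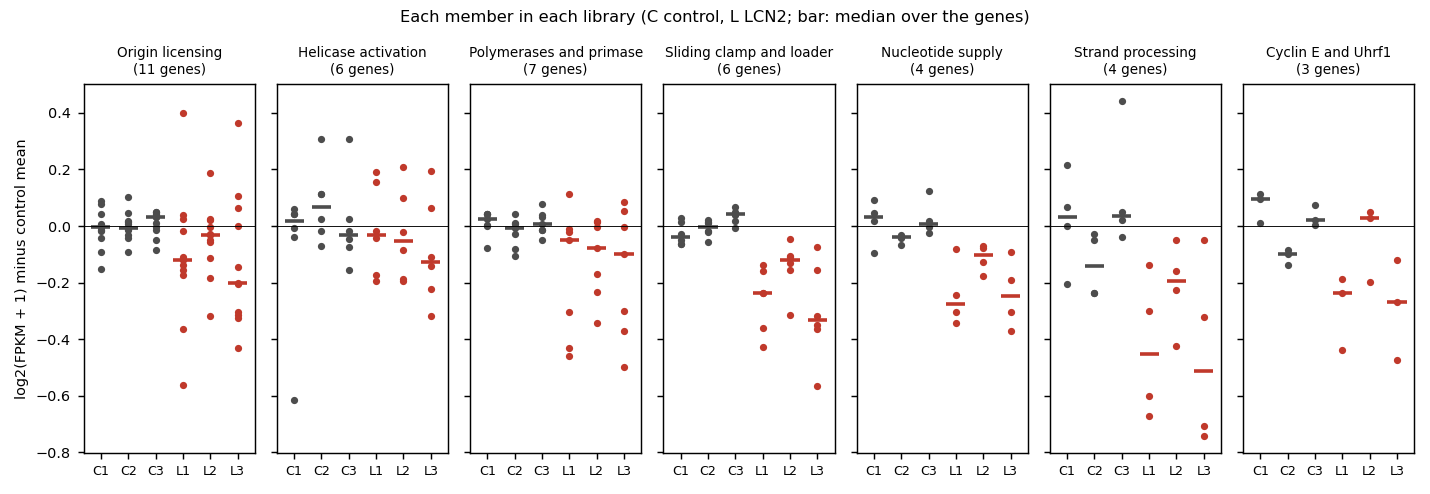
Log2(FPKM + 1) of each gene minus its control mean, by library and role, with bars at the median over the genes of a role. For the clamp and its loader the medians are -0.24, -0.12 and -0.33 in LCN2 replicates 1 to 3. The median of LCN2 replicate 2 lies between those of the controls and of the other LCN2 libraries for licensing, the clamp, nucleotide supply and strand processing, and not for the other 3 roles.

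Subunits that work together changed unequally, which can be read as ratios of deposited values within a library, which multiplying a whole library by a factor does not alter. The pairs were chosen after their values were seen, so they are a description. Prim1 to Prim2 stood at 2.08, 1.99 and 1.98 in control and at 1.34, 1.56 and 1.33 in LCN2 libraries. Orc1 to Orc2 was 0.336, 0.280 and 0.276 in control and 0.140, 0.200 and 0.175 in LCN2 libraries. Gins2 to Gins1 was 0.592 ± 0.0345 and 0.458 ± 0.0150. All 3 ratios were lower in every LCN2 library than in every control.

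Pold1 to Pold2 went from 1.31 ± 0.0331 in control to 1.05 ± 0.0888 in LCN2 libraries, Mcm5 to Mcm7 from 0.356 ± 0.0235 to 0.274 ± 0.0291, and Rfc3 to Rfc1 from 4.94 ± 0.104 to 3.98 ± 0.226. Pola2 to Pola1 was 3.40 ± 0.275 in control and 2.89 ± 0.136 in LCN2 libraries. By contrast Rrm2 to Rrm1 moved little, from 0.897 ± 0.0255 to 0.853 ± 0.0141. The ratio of Rrm2 to Rrm2b, the alternative small subunit that p53 induces, moved from 7.48 ± 0.687 to 5.16 ± 0.736. Rrm2b itself rose by 0.23 on the log2 scale, with 10.2 ± 0.389 FPKM in control and 12.1 ± 0.551 FPKM in LCN2 cells (adjusted p = 0.0271 from limma).

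**Figure D4:**
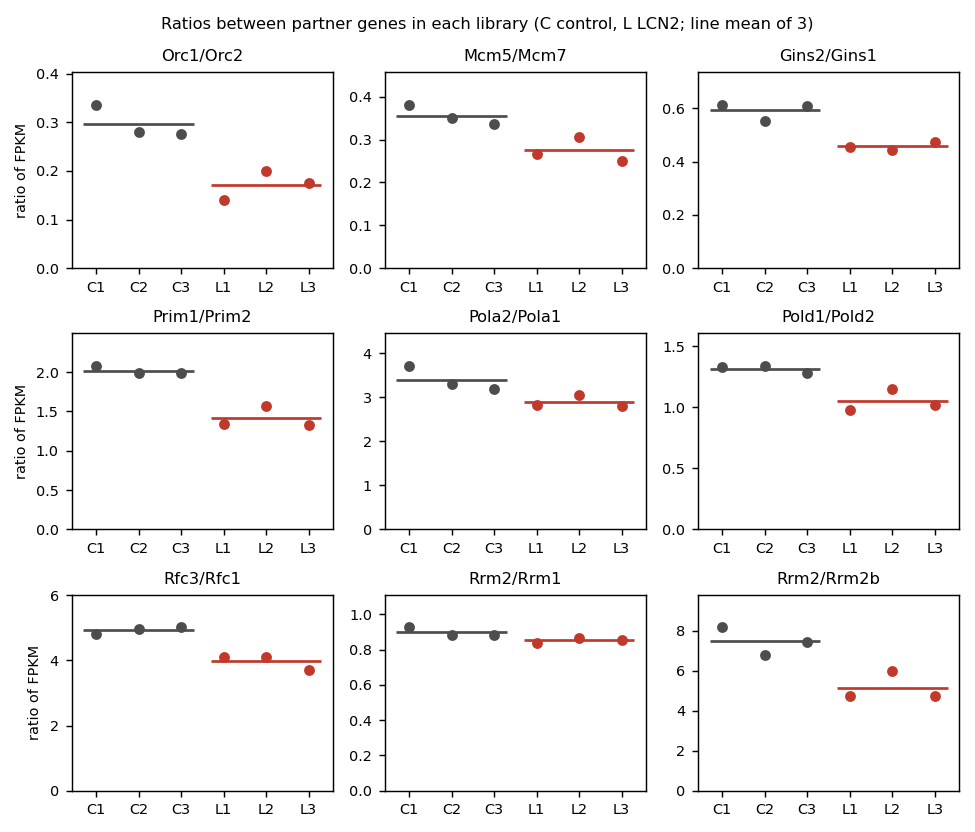
Ratio of FPKM between partner genes in each library, with lines at the mean of 3. Axes start at 0. Prim1/Prim2 is between 1.98 and 2.08 in control and between 1.33 and 1.56 in LCN2 libraries, and in each of the 9 panels the LCN2 points lie below the controls. The pairs were chosen after their values were seen, most with a called fall on top, so this shared direction largely follows from the choice.

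Beyond the 41, another 56 genes of replication gave 14 falls and 2 rises, with 37 log2 fold changes below 0 and a median of -0.09. In percent, 25 fell, 3.57 rose and 66.1 were below 0, beside 9.73, 11.8 and 49.8 of all genes tested. Clamp and RPA partners fell in 4 of 6 cases, among them the third RPA subunit Rpa3 (-0.40, adjusted p = 0.0109 from limma), and Chtf18 (-0.44) and Dscc1 (-0.36) of the alternative loader that serves sister chromatid cohesion. Chtf8, another subunit of that loader, was above the controls in every LCN2 library and was not called (0.15, adjusted p = 0.0632). Genes that rebuild chromatin behind the fork fell in 5 of 9, with the histone chaperones Nasp (-0.21) and Asf1b (-0.19) and the histone mRNA binding protein Slbp (-0.32). Asf1a of the same list was above the controls in every LCN2 library and was not called (0.27, adjusted p = 0.0513). Fork genes fell in 3 of 11, among them the nuclease Dna2 (-0.49) and Wdhd1 (-0.36), and Rnaseh2a, which removes ribonucleotides, rose by 0.27.

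Other licensing and firing genes gave 1 fall in 14, that of Gmnn, the CDT1 inhibitor geminin (-0.35, adjusted p = 0.0320). That is 7.14%, below the share of all genes called lower, and 7 of the 14 log2 fold changes were below 0, with a median of -0.0032. None of 5 further polymerase subunits was called, and of 11 further nucleotide genes Dck, a salvage kinase, fell by 0.49 and Rrm2b rose. For the nucleotide genes these shares are 9.09% each, beside 9.73% and 11.8% of all genes. Of these 11 genes 6 had log2 fold changes below 0, with a median of -0.033, so the direction of the first 4 nucleotide genes did not extend to them. Of 19 S phase regulators 3 fell and 1 rose, or 15.8% and 5.26%, beside 9.73% and 11.8% of all genes. The E2F partner Tfdp1 had 84.2 ± 1.69 FPKM in control and 67.2 ± 5.62 FPKM in LCN2 cells and fell by 0.32 (adjusted p = 0.0147). Ccna2 fell by 0.21 and the CDK inhibitor Cdkn1a rose by 0.24 (adjusted p = 0.0325). No E2F gene was called, with E2f1, E2f4, E2f7 and E2f8 below 0 (-0.21 to -0.02) and E2f2, E2f3 and E2f5 above it (0.06 to 0.15). Tfdp2, the other E2F partner, was at 0.53 with overlapping groups (adjusted p = 0.0996). In 20 genes of G2 and mitosis, all log2 fold changes were below 0, beside 49.8% of all genes, and 7 fell (35%, beside 9.73%). Bub1b (-0.43), Mki67 (-0.36) and Kif20a (-0.52) had the smallest adjusted p. The median was -0.19, beside -0.16 for the 41 replication genes. A difference between these lists was not tested.

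**Figure D5:**
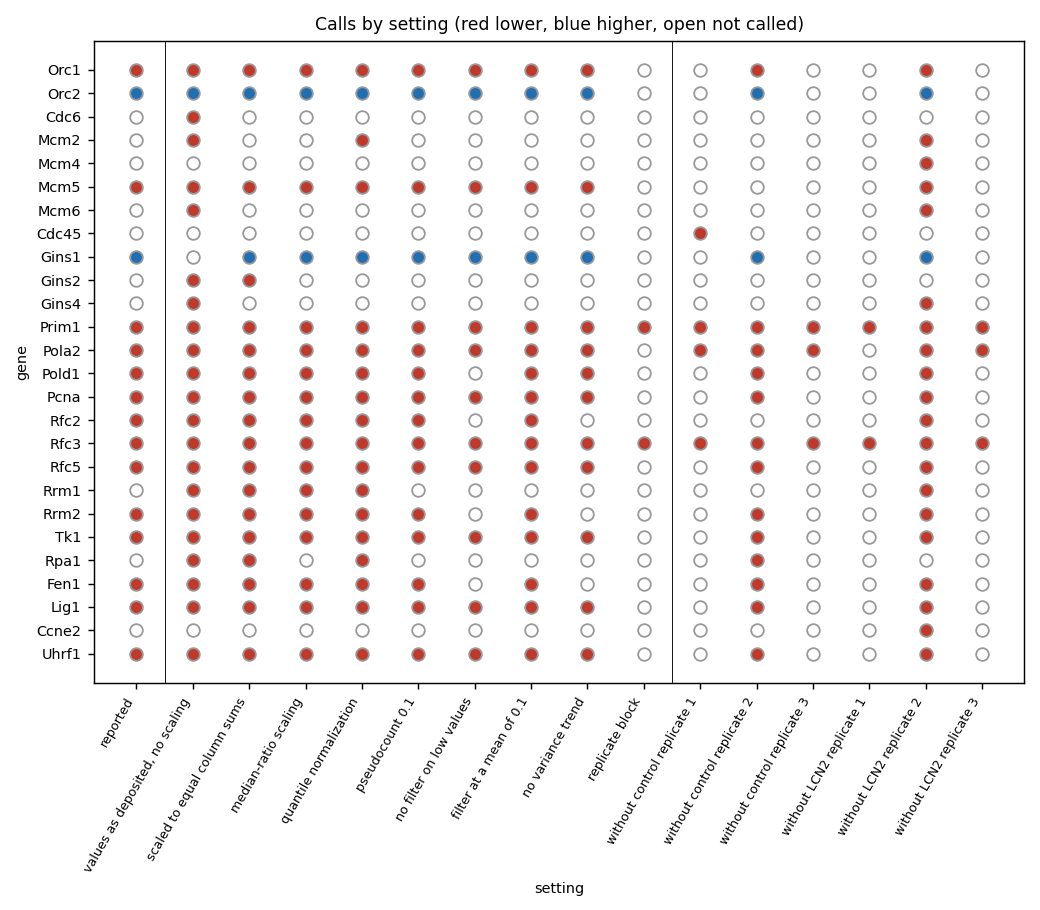
Calls of each gene that passed in at least 1 fit, as reported (first column), under 9 other settings and with each library left out. Red is lower, blue higher and open not called. Prim1 and Rfc3 are red in every column.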

How the data were processed

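RNA was profiled in 3 control and 3 LCN2 libraries. The authors deposited 1 table of 19832 genes whose name speaks of raw counts, but 0% of values above 0 were whole within 1e-9. They were read as FPKM deposited by the authors, because multiplying each by its transcript length (kb) gave library sums of 1032628 to 1095179. The build was GRCm38, per the submitters' processing notes. No source used here names an aligner or quantifier. Whole reads were looked for in low genes with 1 transcript, where the commonest ratio between libraries held 2 to 4 of 144 to 174 genes within 0.002 (log2), so depth was not recovered and no counting intervals are given.

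Values were scaled by unweighted TMM (trims 0.3 and 0.05, factors 0.970 to 1.06) over genes averaging 1 FPKM or more, and log2(FPKM + 1) was fitted with limma 3.58.1 in R 4.3.3 with a variance trend and no replicate term, two-sided, with Benjamini-Hochberg adjustment over 10309 genes. A fold change on this scale understates the change of low genes, and each adjusted p printed is from this fit unless a setting is named. Positions and exon overlaps are from GENCODE M21, in which 19798 gene IDs were found. In it 15 of the 41 genes share exon bases with another gene. Besides those named above, these are Orc6, Cdc45, Gins2, Pole, Rpa1 and Ccne2.

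The genes and lists were chosen with earlier results of these data known. Called members are given with each library's value, and of each other list at most 3 called genes with the smallest adjusted p. Uncalled members are given by mean, SD or fold change. The uncalled E2F genes, Tfdp2, Chtf8, Asf1a, marker genes named and the ratio pairs were chosen after their values were seen.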

Additional observations from a re-analysis of the deposited data

How the results depend on the processing

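Calls depended on the libraries used and on the replicate block. With one library left out, the 14 falls among the replication genes became 2 to 20 and the 2 rises 0 to 2, while over all genes 89 to 1501 were lower and 179 to 1659 higher. The low counts came without control replicate 1 or 3 or LCN2 replicate 1 or 3. Every such fit had fewer samples, but 13 replication genes fell without control replicate 2 and 20 without LCN2 replicate 2. The share of all genes called lower was 0.864% in the fit without LCN2 replicate 1 and 14.6% without LCN2 replicate 2. As deposited, without scaling, 1 replication gene was higher, and over all genes 693 were higher and 1680 lower. The median over all genes was then -0.06 (log2), and over the 41 genes -0.22. Without the filter on low values 612 of all genes were lower, more genes being tested, and 10 replication genes fell, Pold1, Rfc2, Rrm2 and Fen1 being lost. With no variance trend 11 fell, Rfc2, Rrm2 and Fen1 being lost, and 8.44% of all genes were lower.

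Replicate numbers were shared by the groups, but deviations of same-numbered libraries correlated at -0.22, -0.26 and 0.01. These values show no shared replicate effect. With 3 libraries in each group, whether the samples were paired cannot be told from them. With a replicate block, 2 replication genes were lower (Prim1 and Rfc3) and 0 higher, and 81 of all genes were lower and 181 higher. No library correlated best with its own number.

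Directions near 0 turned in genes that were never called. As deposited, Orc6 was at -0.012, Mcm7 at -0.021 and Pold2 at -0.045. After quantile normalization Mcm7 was at -0.0077 and Pold2 at -0.012, and with equal column sums Pold2 was at -0.012. With single libraries left out, Cdt1 ranged from -0.103 to 0.031, Pold2 from -0.035 to 0.054 and Pole from -0.014 to 0.00087. No replication gene that was called turned its direction in any of the 15 alternatives. Depth is unknown, so its limit on these values is too.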
